A study of Mus musculus with 58 samples.

Results

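Microglia isolated from the brains of PS19 mice were compared with microglia of non-transgenic (NTG) mice. The samples were chosen by their labelled genotype, P301S+ for the 4 PS19 mice and WT for the 4 NTG mice, and they are 8 of the 58 samples of the series. All 8 mice were labelled male. The 4 PS19 mice and NTG mice 3 and 4 were 10.98 months old, and NTG mice 1 and 2 were 11.18 months old. No treatment is named for the mice of either group, and mouse numbers only name the samples and pair none of them. Single cells were freed from perfused brains with collagenase and dispase, myelin was removed, and cells were bound to beads coated with antibody to CD11b, a surface integrin that microglia share with border-associated macrophages, monocytes and granulocytes.

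PS19 mice carry a transgene for human tau with the P301S mutation, a mutation found in inherited frontotemporal dementia. The promoter of the mouse prion protein gene Prnp drives the transgene, mainly in neurons, so that microglia meet tau that other cells make. Microglia are the resident macrophages of the brain. In the healthy brain they keep a homeostatic program of surface receptors such as P2ry12, and around protein deposits and dying cells many of them turn on a disease-associated microglia (DAM) program, which takes lipid uptake, lysosomal and phagocytic genes up and part of the homeostatic genes down. NF-κB, a family of transcription factors freed when the kinase IKKβ (gene Ikbkb) has its inhibitors degraded, drives cytokines and chemokines in these cells, and the study asked what tau does to this pathway.

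RNA was read with QuantSeq, a method that sequences only the 3′ ends of polyadenylated RNA, which keeps transcript length out of the counts. The libraries held 3892830 to 7615105 reads counted on genes in PS19 and 1864382 to 5108921 in NTG. Uniquely mapped reads that fell outside annotated genes made up 19.9% to 38.3% in PS19 and 23.4% to 34.8% in NTG. Levels are given as CPM, counts scaled to 1000000 counted reads, after TMM scaling, which sets the libraries to a common level of most genes. Log2 fold changes are of PS19 over NTG, with their standard error (SE).

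The cells carried the markers of microglia in every library. P2ry12, a purinergic receptor, was at 1907 to 4942 CPM. Tmem119, a surface protein of microglia, was at 880 to 2050 CPM, and Cx3cr1, the fractalkine receptor, was at 5830 to 9665 CPM.

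Some libraries stood apart from their group or from their labels. Xist, a noncoding RNA made from the inactive X chromosome of female cells, was at 161, 28.7, 3.93 and 1.67 CPM in PS19 mice 1 to 4 and at 25.6, 25.8, 29.1 and 26.7 CPM in NTG mice 1 to 4. Ddx3y, on the Y chromosome, was at 92.3 to 206 CPM in all 8. So every library held Y-linked reads, and PS19 mouse 1 held the most Xist reads, although it was labelled male. PS19 mice 3 and 4 differed from the other 6 libraries in genes of immature neurons and dividing cells. Dcx, a microtubule protein of migrating neurons, was at 0.131 and 0.304 CPM in these mice, and at 6.11 to 14.1 CPM in the other 6. Sox11, a transcription factor of immature neurons, was at 2.62 and 2.58 CPM in these mice, against 14.4 to 20.9 CPM elsewhere. PS19 mouse 1 was also highest in Igf2bp3, a fetal RNA-binding protein, at 30.8 CPM against 0.455 to 8.53 CPM, and in Mki67, a marker of dividing cells, at 35.4 CPM against 3.49 to 16.5 CPM. Markers of border-associated macrophages summed to 2006 CPM in PS19 mouse 1 and to 793 to 1101 CPM in the other 7 libraries, and Mrc1, the mannose receptor, was at 490 CPM in that mouse against 116 to 242 CPM. In the cultures with tau fibrils or vehicle described below, scaled separately, Dcx was at 36.3 to 145 CPM and Sox11 at 131 to 351 CPM. Xist was at 54.5 to 93.2 CPM there, Igf2bp3 at 30.3 to 66.3 CPM and Mki67 at 9.92 to 44.0 CPM. Mrc1 was lower in these cultures than in every adult library, at 7.09 to 20.9 CPM. The source of these reads in the adult libraries was not tested. Counts of genes called are given below also without PS19 mouse 1 and with only PS19 mice 3 and 4. Some genes and lists are given also without PS19 mouse 1, and most with all mice only.

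**Figure D1:**
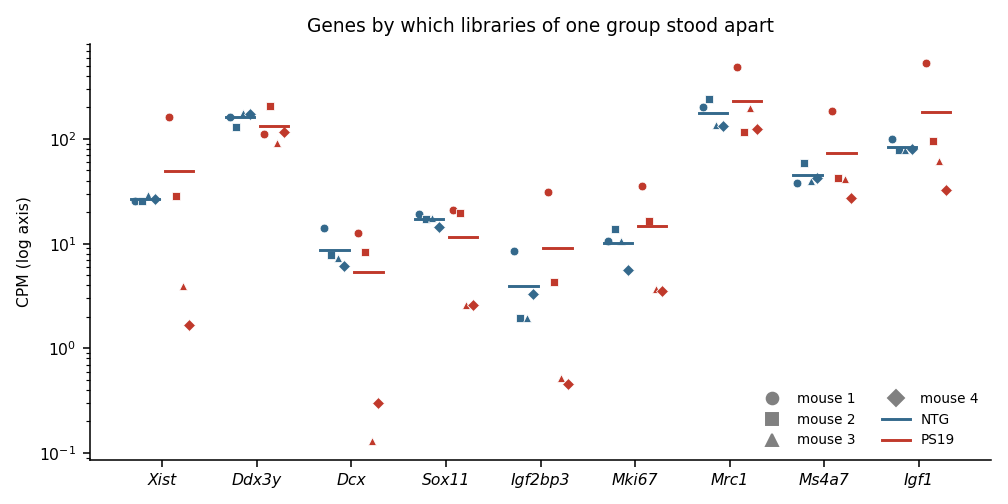
CPM (log axis) in each of the 8 libraries of 9 genes chosen after their values were seen, with NTG in blue, PS19 in red, a symbol for each mouse and a bar at the mean of the group. PS19 mouse 1 is highest in Xist, Igf2bp3, Mki67, Mrc1, Ms4a7 and Igf1, and PS19 mice 3 and 4 are lowest in Xist, Dcx, Sox11, Igf2bp3 and Mki67.

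Of 11323 genes tested, 8 were upregulated in PS19 microglia at an FDR below 0.05 (edgeR quasi-likelihood test, 0.0707% of the genes tested), and 0 were downregulated (0.0%). Counted without adjustment, at p below 0.05, 560 genes were higher (4.95%) and 417 were lower (3.68%). The 8 differentially expressed genes (DEGs) are receptors of phagocytes (Itgax, Clec7a and Axl), a protease inhibitor (Cst7), a carbohydrate sulfotransferase and a heparan sulfate proteoglycan (Chst2 and Sdc3), and proteins of the cytoskeleton (Actr3b and Nes). In each of them all 4 PS19 libraries were above all 4 NTG libraries, which was so for 373 genes of those tested (3.29%), and 280 genes (2.47%) had all PS19 libraries below NTG. For a gene without overlap the exact two-sided permutation test gives p = 0.0286, the smallest that 4 against 4 mice allow. DESeq2 called 98 genes on the same counts, 79 higher (0.698%) and 19 lower (0.168%), the 8 among them.

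**Figure D2:**
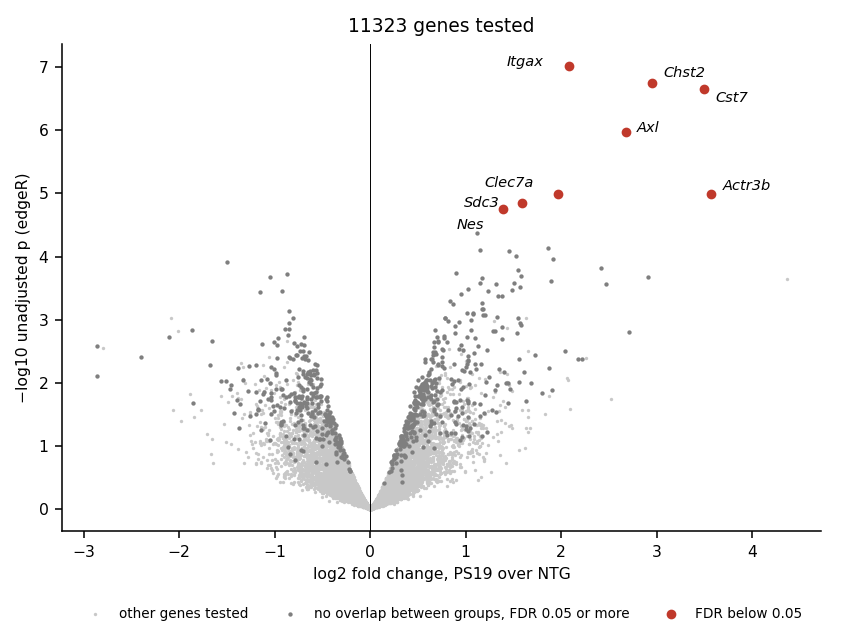
Each point is 1 of 11323 genes, with its log2 fold change of PS19 over NTG on the x axis and −log10 of the unadjusted edgeR p on the y axis. The 8 DEGs, in red, all lie on the right, from Nes at 1.39 to Actr3b at 3.57, and dark grey points are genes whose groups did not overlap but whose FDR was 0.05 or more.

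Itgax encodes CD11c, the alpha chain of complement receptor 4, and lies on chromosome 7 (128129547 to 128150657, plus strand, GRCm38). Its level was 189.7, 143, 223 and 165 CPM in PS19 mice 1 to 4 and 47.7, 41.6, 40.9 and 40.0 CPM in NTG mice 1 to 4. The NTG mice lay close together and the lowest PS19 mouse was 3.01 times the highest NTG mouse. The log2 fold change was 2.08 (SE 0.19, edgeR FDR 0.000822), from a mean of 180.1 ± 34.1 CPM against 42.6 ± 3.47 (SD, n = 4 each).

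Cst7 encodes cystatin F, an inhibitor of lysosomal cathepsins, and lies on chromosome 2 (150570415 to 150578944, plus strand). PS19 mice 1 to 4 had 252, 153, 385 and 170.2 CPM, and NTG mice 1 to 4 had 18.1, 30.8, 13.4 and 23.9 CPM. PS19 mouse 3 was highest and mouse 2 lowest, and no PS19 value came near the NTG range. It rose 11.3-fold (log2 fold change 3.49, SE 0.35, edgeR FDR 0.000822).

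Axl, a receptor tyrosine kinase that binds dying cells through its ligand Gas6, lies on chromosome 7 (25757273 to 25788705, minus strand). It was at 143, 99.5, 284 and 166 CPM in the PS19 mice and at 23.1, 35.5, 25.4 and 24.5 CPM in the NTG mice, again without overlap and with mouse 3 highest. The rise was 6.39-fold (log2 fold change 2.67, SE 0.31, edgeR FDR 0.00301).

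Clec7a encodes dectin-1, a lectin receptor for β-glucans, and lies on chromosome 6 (129461591 to 129472779, minus strand). The PS19 mice had 379, 219, 404 and 162 CPM and the NTG mice 71.8, 85.2, 75.4 and 63.9 CPM. Here mice 1 and 3 were high, and mouse 4, the lowest of the group, was 1.90 times the highest NTG mouse. The log2 fold change was 1.97 (SE 0.28, edgeR FDR 0.0195).

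Chst2 adds sulfate to N-acetylglucosamine of glycans and lies on chromosome 9 (95399292 to 95406722, minus strand). It stood at 127, 60.1, 97.9 and 80.5 CPM in PS19 and at 10.5, 10.8, 16.5 and 7.78 CPM in NTG. It was the only DEG that was highest in PS19 mouse 1, and its lowest PS19 value was 3.64 times its highest NTG value. The rise was 7.73-fold (log2 fold change 2.95, SE 0.29, edgeR FDR 0.000822).

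Sdc3 encodes syndecan-3, a membrane protein that carries heparan sulfate chains, and lies on chromosome 4 (130792537 to 130826319, plus strand). PS19 mice 1 to 4 had 95.7, 96.9, 179.7 and 113 CPM, against 34.6, 36.6, 43.9 and 45.6 CPM in NTG mice. Mouse 3 stood above the other PS19 mice. The rise was 3.02-fold (log2 fold change 1.59, SE 0.23, edgeR FDR 0.0230).

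Actr3b encodes a form of Arp3, a subunit of the complex that starts branched actin filaments, and lies on chromosome 5 (25759997 to 25850688, plus strand). It was at 15.2, 6.92, 18.9 and 7.89 CPM in PS19. The NTG libraries held 2, 3, 3 and 3 reads of it, 11 in all, against 26 to 144 reads in the PS19 libraries. The ratio of the summed reads, scaled by library size, was 13.6, with an exact 95% interval of 7.51 to 27.6 that covers counting error only. The edgeR FDR was 0.0195.

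Nes encodes nestin, an intermediate filament protein, and lies on chromosome 3 (87971078 to 87980451, plus strand). It was at 29.2, 25.0, 29.6 and 28.1 CPM in PS19 and at 11.0, 11.2, 10.8 and 9.45 CPM in NTG. Both groups were tight, with highest values 1.18 times the lowest in each. The log2 fold change was 1.39 (SE 0.21, edgeR FDR 0.0252).

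Across the PS19 mice the DEGs shared an order at its top, since 7 of the 8 were highest in mouse 3 and 6 of the 8 were lowest in mouse 2. In PS19 mouse 2 reads outside genes reached 38.3% of the uniquely mapped reads, against 19.9% to 22.1% in the other PS19 mice, and the part of this in the order was not tested. The genes spread unequally, from 1.18 times between the lowest and the highest PS19 mouse in Nes to 2.86 times in Axl. Without PS19 mouse 1, 6 DEGs were called, 5 higher (Chst2, Itgax, Cst7, Axl and Sdc3) and 1 lower, which is not among the 8. With only PS19 mice 3 and 4 against NTG there were 543, 249 higher and 294 lower, all 8 among the higher. The sample names number these mice apart from all other libraries, so in this subset genotype and numbering cannot be told apart. With only PS19 mice 1 and 2 there were 12, 8 higher and 4 lower, which left out Actr3b and Nes. Age parted the groups in a limited way, as only NTG held mice of 11.18 months, and with age in the model, or with the mice of 10.98 months alone, 0 genes passed the FDR (552 and 520 genes at unadjusted p below 0.05) while all 8 fold changes kept their sign and about their size. With age in the model the log2 fold change was 2.15 for Itgax, 3.73 for Cst7, 2.80 for Axl and 1.44 for Sdc3, and the lowest edgeR FDR was 0.0521.

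**Figure D3:**
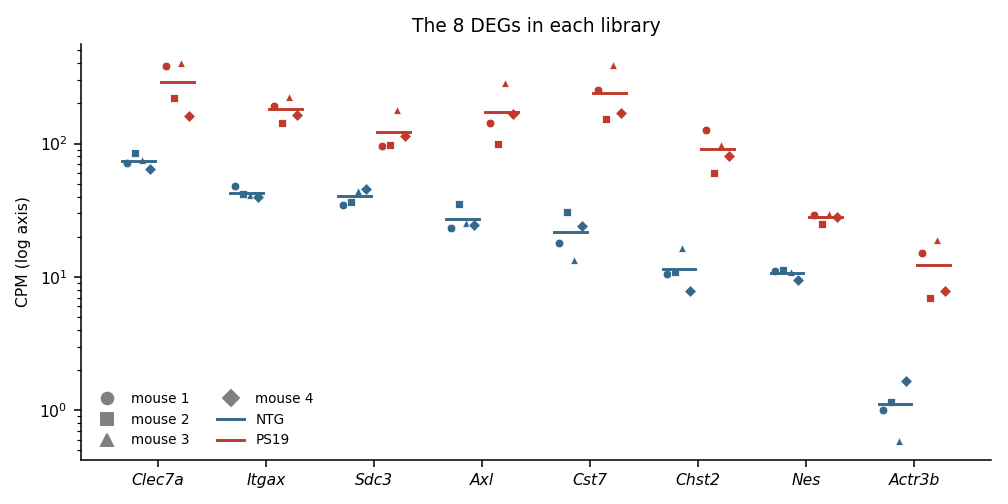
CPM (log axis) of the 8 DEGs in each library, ordered by their NTG mean, with NTG in blue, PS19 in red, a symbol for each mouse and a bar at the mean of the group. Every red point lies above every blue point of the same gene, and mouse 3 (triangle) is the highest PS19 point of 7 genes.

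The promoters of the DEGs were read from RefSeq (build GRCm38.p6, 250 bases before to 50 after the start of the gene), which held 7 of the 8, without Actr3b. Motifs were searched on both strands for PU.1, the factor that sets the macrophage lineage (GAGGAAG), AP-1 (TGANTCA), the E-boxes CACGTG and CATGTG, and NF-κB by its consensus. AP-1 was in 2 of the 7, against 7.81% of 32851 promoters, and PU.1 in 1 of the 7, against 13.6%. The E-boxes (7.15% and 14.2% of all promoters) and the NF-κB consensus (8.46%) were in 0 of the 7, which says only that these letters are not in this window. The 3 promoters with a match are shown because they belong to DEGs that rose together, with the motif in capitals. They are Itgax (chr7:128129300-128129599, plus strand, AP-1 starting 56 bases before the start), Cst7 (chr2:150570165-150570464, plus strand, AP-1 starting 6 bases before the start) and Axl (chr7:25788684-25788983, minus strand, PU.1 read on the opposite strand).
Itgax: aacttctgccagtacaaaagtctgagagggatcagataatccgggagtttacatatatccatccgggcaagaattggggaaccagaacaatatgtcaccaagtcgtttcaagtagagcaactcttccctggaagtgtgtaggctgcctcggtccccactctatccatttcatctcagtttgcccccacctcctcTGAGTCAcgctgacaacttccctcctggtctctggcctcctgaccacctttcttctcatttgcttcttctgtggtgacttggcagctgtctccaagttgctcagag
Cst7: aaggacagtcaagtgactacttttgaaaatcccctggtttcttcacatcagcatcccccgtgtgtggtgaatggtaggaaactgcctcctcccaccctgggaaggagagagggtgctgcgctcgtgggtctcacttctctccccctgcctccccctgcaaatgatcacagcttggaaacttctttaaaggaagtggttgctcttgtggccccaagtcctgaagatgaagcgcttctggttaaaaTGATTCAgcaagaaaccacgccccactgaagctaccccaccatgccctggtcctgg
Axl: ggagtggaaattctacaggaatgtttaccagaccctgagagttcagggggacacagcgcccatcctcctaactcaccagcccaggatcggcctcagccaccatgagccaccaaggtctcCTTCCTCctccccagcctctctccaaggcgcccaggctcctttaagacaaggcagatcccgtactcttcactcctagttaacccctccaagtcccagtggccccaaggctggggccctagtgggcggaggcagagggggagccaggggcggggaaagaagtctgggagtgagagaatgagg

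Beyond the DEGs, most genes of the DAM core were higher in PS19. Of 38 genes listed, 37 were in the tables, 34 passed the filter on low counts, and Dkk2, Baiap2l2 and Mamdc2 did not. Of the 34, 32 had a higher level in PS19, against 50.5% of all genes tested. Among them 4 were DEGs (Cst7, Clec7a, Itgax and Axl), against 0.0707% of all genes tested, and 13 had no overlap, 38.2% against 3.29%. The median log2 fold change was 1.02, against 0.00 over all genes. It was 0.58 without PS19 mouse 1, and the list's median in that library, relative to the NTG mean, was 1.34, against 0.57, 1.23 and 0.42 in PS19 mice 2 to 4 and -0.08 to 0.07 in the NTG mice. Lpl, the lipoprotein lipase, was at 619, 86.8, 501 and 168 CPM in PS19 and at 75.8, 53.6, 68.1 and 50.02 CPM in NTG, with a log2 fold change of 2.47 (SE 0.50, edgeR FDR 0.108). Csf1, the growth factor of macrophages, had 139, 65.5, 177 and 93.8 CPM against 42.7, 27.8, 52.0 and 45.0 CPM (edgeR FDR 0.108). Neither gene's groups overlapped, and PS19 mice 1 and 3 were the highest in both.

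Other DAM genes varied more between PS19 mice or overlapped with NTG. Apoe, the lipid carrier apolipoprotein E, was at 9796, 3145, 4223 and 2150 CPM in PS19 and at 3549, 2216, 1718 and 1720 CPM in NTG, and its log2 fold change was 1.07 (edgeR FDR 0.487) and 0.46 without PS19 mouse 1. Spp1, osteopontin, was at 709, 103, 353 and 109 CPM in PS19 and at 143, 126, 129 and 146 CPM in NTG, so that of the PS19 mice only mice 1 and 3 exceeded NTG. Igf1, an insulin-like growth factor, was at 535 CPM in PS19 mouse 1 and at 32.3 to 96.3 CPM in the other PS19 mice, with 78.5 to 100.4 CPM in NTG, and its log2 fold change was 1.11 with that mouse and -0.42 without it (edgeR FDR 0.665 and 0.744). Trem2, the receptor on which the later DAM stage depends, was at 1133 to 1389 CPM in PS19 and at 1193 to 1426 CPM in NTG, a complete overlap.

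The early DAM stage, which does not need Trem2, had a list of its own. Of the 10 listed, all tested, 9 were higher (90.0% against 50.5%) and 3 had no overlap (30.0% against 3.29%), with a median log2 fold change of 0.74, and 0.46 without PS19 mouse 1. The library medians were 0.90, 0.87 and 0.41 in PS19 mice 1, 3 and 4, but 0.09 in PS19 mouse 2, below NTG mouse 2 at 0.29. The summed level of the list in PS19 mouse 2, at 41830 CPM, was below every NTG mouse (49500 CPM or more). Ctsb, a cysteine protease of lysosomes, had 3606, 2117, 4343 and 3107 CPM in PS19 and 1724, 1934, 1763 and 1696 CPM in NTG. Timp2, an inhibitor of matrix metalloproteases, had 1093, 1159, 1216 and 1115 CPM against 573, 773, 656 and 820 CPM. Both were without overlap and missed the threshold, with edgeR FDRs of 0.242 and 0.258 and log2 fold changes of 0.89 (SE 0.22) and 0.70 (SE 0.18). Tyrobp, the adaptor of Trem2, overlapped, with 1291 to 2298 CPM in PS19 and 1067 to 2310 CPM in NTG.

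The homeostatic list leaned the other way. All 33 genes were tested, 26 were lower in PS19 (49.5% of all genes tested), 0 were DEGs, and 5 had all PS19 libraries below NTG, 15.2% against 2.47%. The median log2 fold change was -0.22, and without PS19 mouse 1 it was -0.11. Gpr34, a lysophosphatidylserine receptor, was at 900.1, 824, 1088 and 1078 CPM in PS19 and at 1472, 1855, 1429 and 1344 CPM in NTG (log2 fold change -0.65, SE 0.19, edgeR FDR 0.336). P2ry12, which guides microglial processes to ATP, was at 1908, 1907, 3640 and 3428 CPM against 3785, 4942, 4068 and 3866 CPM. Its log2 fold change was -0.61 (SE 0.25, edgeR FDR 0.522), and PS19 mice 1 and 2 lay far below the NTG mice while mice 3 and 4 came close to them. Sall1, a transcription factor of microglial identity, had 430, 566, 582 and 648 CPM against 955, 768, 673 and 785 CPM. Slc2a5, a fructose transporter, had 395, 649, 485 and 764 CPM against 823, 865, 839 and 825 CPM. Both were below NTG in every PS19 mouse, with edgeR FDRs of 0.478 and 0.500.

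Targets and feedback inhibitors of NF-κB were mostly higher in PS19, and none of them was a DEG. In the response list 36 of 37 genes were tested, and 28 were higher (77.8% against 50.5% of all genes). At unadjusted p below 0.05, 14 were higher (38.9% against 4.95%), and 11 had no overlap upward (30.6% against 3.29%). The median log2 fold change was 0.52, with 0 DEGs. DESeq2 called 9 of the 36 genes higher, 25.0% against 0.698% of all genes. The library medians overlapped, at 0.25, 0.54, 0.80 and 0.56 in PS19 mice 1 to 4 and at -0.01, -0.47, 0.34 and 0.23 in NTG mice 1 to 4, with PS19 mouse 1 below NTG mouse 3. Tnf, the cytokine, was at 258, 412, 546 and 380 CPM in PS19 and at 84.8, 55.5, 146 and 153 CPM in NTG (log2 fold change 1.86, SE 0.32, edgeR FDR 0.0769). Ccl5, a chemokine for T cells, was at 16.5, 31.1, 17.2 and 12.9 CPM against 4.52, 3.47, 6.50 and 5.56 CPM (1.91, SE 0.35, edgeR FDR 0.0875). Il1rn, the decoy ligand of the interleukin-1 receptor, was at 18.8, 16.5, 28.8 and 9.87 CPM against 7.53, 3.47, 4.72 and 4.45 CPM (1.89, SE 0.38, edgeR FDR 0.108). Nfkbia, the inhibitor IκBα, overlapped between the groups, with 4255 to 7756 CPM in PS19 and 2173 to 5169 CPM in NTG.

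Among 20 kinases, subunits and adaptors of the pathway 19 were tested, 11 were higher and 8 lower, and the median log2 fold change was 0.05. Ikbkb was at 59.3, 72.6, 72.9 and 91.9 CPM in PS19 and at 54.2, 56.3, 64.8 and 67.8 CPM in NTG (0.29, SE 0.19, edgeR FDR 0.697), which overlap. Chuk, the kinase IKKα, was at 28.7, 18.6, 45.1 and 36.3 CPM against 67.7, 52.4, 42.9 and 49.5 CPM. Tab2, an adaptor of the upstream kinase TAK1, had all PS19 mice, at 153 to 196 CPM, below the NTG mice at 231 to 263 CPM (-0.56, SE 0.17, edgeR FDR 0.357).

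Enzymatic dissociation of tissue is known to raise immediate early genes and chemokines, so these formed a list of their own. Their summed level was 17926 to 24608 CPM in PS19 and 10101 to 24997 CPM in NTG, where mouse 2 was lowest, and the same NTG mouse was lowest in Tnf, Ccl5, Il1rn and Nfkbia. The part of dissociation in the NF-κB targets was not tested. Of the 33 genes, 32 were tested, 24 were higher (75.0% against 50.5%) and 4 had no overlap upward (12.5% against 3.29%). The median log2 fold change was 0.19, and it ran from -0.13 to 0.37 under other scalings, filters, tools, covariates and subsets of mice. The library medians overlapped, at 0.07, 0.34, 0.43 and 0.45 in PS19 mice 1 to 4. In NTG mice 1 to 4 they were -0.20, -0.69, 0.56 and 0.35, with NTG mouse 3 above every PS19 mouse. Fos, the AP-1 subunit, overlapped, with 468 to 982 CPM in PS19 and 416 to 978 CPM in NTG. Ccl3, a chemokine, was at 1012, 885, 1171 and 825 CPM in PS19 against 309, 285, 725 and 498 CPM in NTG (1.10, SE 0.28, edgeR FDR 0.260). Dusp2, a phosphatase of MAP kinases, was at 132, 127, 315 and 287 CPM against 108, 59.8, 114 and 121 CPM (1.10, SE 0.33, edgeR FDR 0.357). Neither passed the threshold, and neither overlapped.

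**Figure D4:**
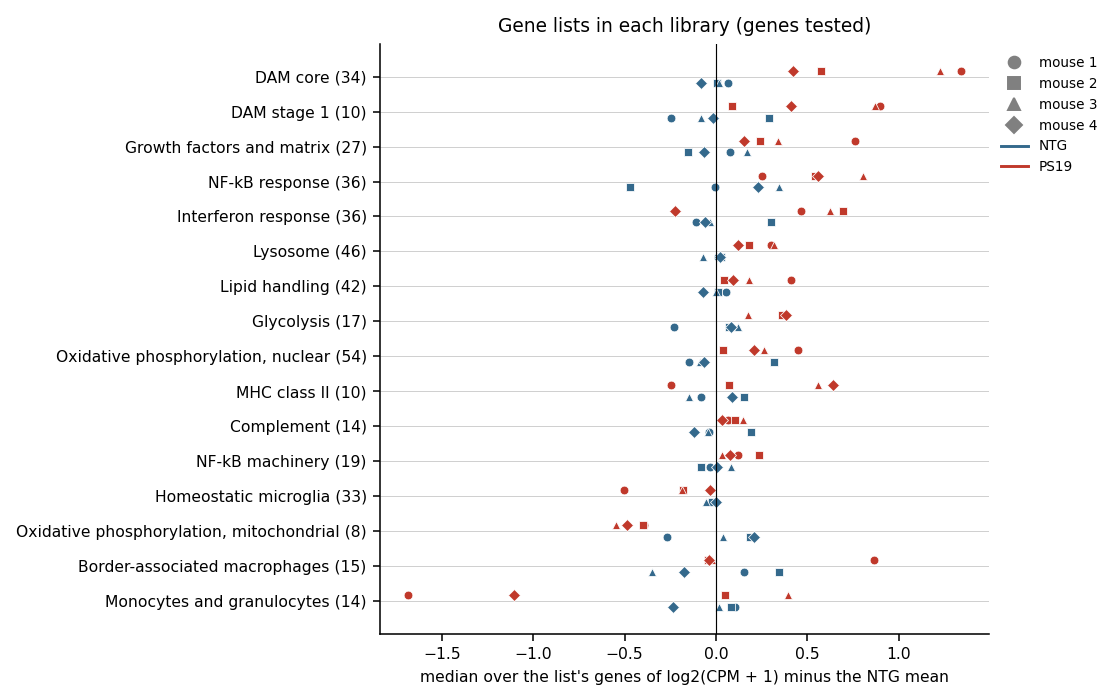
For 16 gene lists, with the number of tested genes in parentheses, each point is the median over the list's genes of log2(CPM + 1) in 1 library minus the NTG mean. The DAM core list lies at 0.42 to 1.34 in PS19 and -0.08 to 0.07 in NTG, PS19 mouse 1 (circle) is lowest in homeostatic genes, and the 4 PS19 libraries lie left of the NTG libraries in the mitochondrially encoded list.

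Of 40 interferon-induced genes 36 were tested, and 30 were higher in PS19 (83.3% against 50.5% of all genes). The median log2 fold change was 0.42, and 7 had no overlap (19.4% against 3.29%). The library medians were 0.47, 0.70 and 0.62 in PS19 mice 1 to 3 but -0.23 in mouse 4, below all NTG mice (-0.11 to 0.30). Lgals3bp, a secreted glycoprotein, came closest to the threshold of all other genes, at 209, 192, 277 and 194 CPM against 91.8, 112, 94.7 and 103 CPM (1.12, SE 0.18, edgeR FDR 0.0536). Irf7, a transcription factor of the type I interferon response, was at 15.3, 17.6, 14.2 and 15.5 CPM against 6.02, 8.87, 7.28 and 4.45 CPM (2.30-fold, edgeR FDR 0.193). Ifit1, a classic interferon target, overlapped, at 6.92 to 10.9 CPM in PS19 and 4.33 to 12.3 CPM in NTG.

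Genes of antigen presentation and complement were divided in direction. Of 18 class I genes tested 10 were higher, and the median log2 fold change was 0.08. H2-K1, a class I heavy chain, was at 473, 546, 748 and 545 CPM against 363, 395, 349 and 356 CPM (0.66, SE 0.19, edgeR FDR 0.327), and reads of these closely related heavy chains can be split between genes. For class II the library medians parted the PS19 mice, at -0.25, 0.07, 0.56 and 0.64 in mice 1 to 4. H2-Eb1, a class II chain, had 175, 213, 270 and 274 CPM against 146, 158, 161 and 163 CPM (0.57, SE 0.19, edgeR FDR 0.427). C1qa, a chain of the starter of the classical complement pathway, was at 6014 to 8786 CPM in PS19 and 6787 to 8592 CPM in NTG. Of 14 complement genes tested, Itgax was the 1 DEG, against 0.0707% of all genes tested. C3ar1, the receptor of the fragment C3a, was at 445 to 607 CPM against 344 to 416 CPM (0.42, SE 0.17, edgeR FDR 0.525).

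Most lysosomal genes were slightly higher in PS19. Of 47 listed 46 were tested, and 35 were higher (76.1% against 50.5% of all genes), with a median log2 fold change of 0.26. At unadjusted p below 0.05, 13 were higher (28.3% against 4.95%), and 10 had no overlap upward (21.7% against 3.29%). The library medians were 0.12 to 0.32 in PS19 and -0.07 to 0.03 in NTG. The summed level, however, was 48207 CPM in PS19 mouse 2, below every NTG mouse (48266 to 59269 CPM), and 60949 CPM or more in the other PS19 mice. Gusb, the β-glucuronidase, had 444, 287, 425 and 441 CPM against 245, 256, 231 and 245 CPM (0.71, SE 0.19, edgeR FDR 0.273). Gaa, the acid α-glucosidase that breaks down glycogen, had 87.8, 111, 122 and 134 CPM against 77.8, 65.5, 73.0 and 60.6 CPM (0.71, SE 0.19, edgeR FDR 0.273). In both the lowest PS19 mouse was above the highest NTG mouse, and no gene of the list passed the FDR.

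The median of the lipid genes rested on PS19 mouse 1. Of 42 tested 30 were higher (71.4% against 50.5%), and the median log2 fold change of 0.21 went to 0.01 without that mouse. Npc2, which hands cholesterol out of lysosomes, was higher in every PS19 mouse, at 1752 to 2008 CPM against 1139 to 1402 CPM (0.54, SE 0.17, edgeR FDR 0.422).

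Of 17 glycolysis genes tested 13 were higher (76.5% against 50.5%), with a median log2 fold change of 0.34. Pkm, pyruvate kinase, was at 275, 201, 210.3 and 232 CPM against 110.4, 135, 133 and 156 CPM (0.78, SE 0.18, edgeR FDR 0.193). Hif1a, the oxygen-sensitive activator of glycolysis, was at 172, 154, 281 and 206 CPM against 113, 132, 124 and 108 CPM (0.77, SE 0.21, edgeR FDR 0.309). Among respiratory chain genes the direction differed by genome. Of the 54 nuclear genes tested 45 were higher (83.3% against 50.5%, median 0.22), and 2 had no overlap upward (3.70% against 3.29%). Their library medians overlapped, at 0.45, 0.04, 0.26 and 0.21 in PS19 mice 1 to 4 and -0.15, 0.32, -0.09 and -0.06 in NTG mice. Of the 8 mitochondrially encoded genes tested, 6 were lower (75.0% against 49.5%, median -0.41). All PS19 libraries were below NTG in 1 of them (12.5% against 2.47%). The summed level of the mitochondrial list was 16809, 16454, 15079 and 17824 CPM in PS19 and 17239, 24742, 22857 and 23143 CPM in NTG, so that PS19 mouse 4 overlapped NTG mouse 1. mt-Nd4, a complex I subunit, was at 3684 to 5307 CPM in PS19 and 5390 to 7502 CPM in NTG (-0.48, SE 0.20, edgeR FDR 0.525).

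Both glycan DEGs belonged to a list of 37 proteoglycan and sulfation genes, of which 30 were tested. Of all genes tested 0.0707% were DEGs. Of the 30 genes 18 were higher and 12 lower, the median log2 fold change was 0.07, and 6 had no overlap upward (20.0% against 3.29%). Besides Chst2 and Sdc3, Sulf2, an extracellular enzyme that removes sulfate from heparan chains, was at 32.5, 16.8, 32.1 and 42.2 CPM against 10.5, 6.17, 13.6 and 11.1 CPM (1.57, SE 0.32, edgeR FDR 0.114). Sdc4, another syndecan, was at 46.8, 34.1, 32.3 and 20.6 CPM against 14.6, 15.0, 19.1 and 15.0 CPM (1.05, SE 0.26, edgeR FDR 0.232).

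The actin list, with 35 of 36 genes tested, was also divided, with 22 higher and 13 lower. Capg, which caps actin filaments, was at 39.3 to 45.8 CPM in PS19 and 16.6 to 29.7 CPM in NTG (0.93, SE 0.22, edgeR FDR 0.208). Myo1e, a myosin of phagocytic cups, was at 38.6, 32.5, 28.3 and 24.4 CPM against 9.53, 7.32, 16.1 and 15.6 CPM (1.33, SE 0.28, edgeR FDR 0.126). Actr2, a partner of Arp3 in the nucleation complex, was lower, at 189 to 385 CPM against 344 to 493 CPM (-0.52, SE 0.22, edgeR FDR 0.540), with overlap.

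Of 30 Fc, scavenger and lectin receptors tested 19 were higher (63.3% against 50.5% of all genes, median 0.10). Among them 2 were DEGs (Axl and Clec7a), against 0.0707% of all genes tested. Cd22, an inhibitory lectin that binds sialic acid, was at 20.6, 28.5, 29.2 and 21.9 CPM against 7.53, 11.2, 4.53 and 11.1 CPM (1.58, SE 0.31, edgeR FDR 0.107). For the 27 growth factor and matrix genes tested the median was 0.55, and 0.18 without PS19 mouse 1. Mmp12, the macrophage elastase, was at 16.5, 13.8, 20.7 and 10.2 CPM against 6.52, 5.40, 5.12 and 7.78 CPM (1.33, SE 0.31, edgeR FDR 0.193). Cell cycle genes had a median of 0.39 over 27 genes with PS19 mouse 1 and of -0.16 without it, and their sum was 1282 CPM in that mouse against 695 to 900.2 CPM elsewhere. Ribosomal protein genes were even, with 43 of 74 higher (median 0.02), and so were genes near Alzheimer risk loci, with 15 of 32 higher (median -0.01). Rplp1, a ribosomal protein with pseudogene copies that can share its reads, was at 746 to 1538 CPM against 349 to 541 CPM (1.23, SE 0.26, edgeR FDR 0.117).

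Among genes without overlap and with a mean of at least 10 reads in the higher group, the 8 with the highest fold changes were Actr3b, Cst7, Chst2, H2-M2, Il12b, Axl, Lpl and Arnt2. H2-M2, a nonclassical class I gene, was at 8.07, 10.4, 13.8 and 4.10 CPM against 0.502, 0.386, 2.17 and 1.11 CPM (edgeR FDR 0.107). Il12b, the p40 chain of interleukin-12, was at 15.3, 31.9, 18.6 and 5.92 CPM against 0, 0.771, 4.13 and 5.56 CPM (edgeR FDR 0.240), so that PS19 mouse 4 barely exceeded NTG mouse 4. Arnt2, a transcription factor, was at 4.40 to 6.56 CPM against 0.787 to 1.16 CPM (edgeR FDR 0.107). The 8 lowest were pseudogenes or noncoding RNAs (Gm6472, Gm11942, Gm23037, Gm16300, Gm22613, 1700023H06Rik, Gm13383 and Rnu3b1). The most abundant of them, the processed pseudogene Gm11942, was at 66.4, 129.6, 986 and 21.7 CPM in PS19 and at 2565, 3782, 1300.3 and 1105 CPM in NTG (edgeR FDR 0.419), and reads of processed pseudogenes can come from their parent genes.

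Protein-coding genes that were lower, chosen after their values were seen, included Il7r and Hes1. Il7r, the receptor of interleukin-7, was at 28.8, 37.3, 25.4 and 25.4 CPM in PS19 and at 73.3, 51.3, 64.8 and 52.2 CPM in NTG (-1.05, SE 0.21, edgeR FDR 0.107). Hes1, a repressor downstream of Notch, was at 56.0, 86.2, 70.8 and 92.5 CPM against 149.5, 113, 197 and 222 CPM (-1.16, SE 0.24, edgeR FDR 0.118). DESeq2 called both, with adjusted p of 0.0015 and 0.0023.

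Prnp, the gene whose promoter drives the transgene, was higher in every PS19 mouse. It was at 23.1, 23.7, 21.9 and 30.8 CPM in PS19 and at 11.5, 12.0, 9.25 and 11.7 CPM in NTG (1.17, SE 0.23, edgeR FDR 0.107, DESeq2 adjusted p 0.0033). No PS19 mouse came within the NTG range, and whether transgene reads are among these counts was not tested. Mapt, the mouse tau gene, was at 1.67 to 10.9 CPM in PS19 and 3.51 to 9.25 CPM in NTG, and human tau was not measured in these tables.

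The marker lists of other cell types held none of the 8 DEGs, so whether other cells also make the DEGs was not tested. Several of these lists were at levels that differed between libraries. Those of monocytes and granulocytes summed to 516, 1713, 2562 and 991 CPM in PS19 and to 1629 to 2246 CPM in NTG, so that PS19 mice 1 and 4 fell below all NTG mice. Ccr2, the chemokine receptor of inflammatory monocytes, was at 16.5, 20.2, 26.6 and 8.96 CPM in PS19 and at 41.7, 50.1, 30.7 and 36.7 CPM in NTG (-1.13, SE 0.30, edgeR FDR 0.284). Endothelial and pericyte markers were higher in PS19 in 14 of 14 genes tested (against 50.5% of all genes, median 0.46), with sums of 917 to 1724 CPM against 790 to 1135 CPM. Their library medians were 0.89, 0.31 and 0.83 in PS19 mice 2 to 4 but -0.46 in PS19 mouse 1, below every NTG mouse (-0.27 to 0.21). Astrocyte markers summed to 842 to 1839 CPM against 680.2 to 1022 CPM, most of it Slc1a3, a glutamate transporter, at 764 to 1778 CPM against 593 to 917 CPM, while Gfap, the defining filament of astrocytes, stayed at 0.386 to 2.78 CPM. Neuronal markers summed to 134 to 271 CPM and 163 to 316 CPM, oligodendrocyte markers to 1322 to 1646 CPM and 1386 to 1738 CPM, choroid plexus markers to 291 to 1166 CPM and 531 to 727 CPM, and red blood cell markers to 0.989 to 34.6 CPM and 3.33 to 18.6 CPM. The library medians of oligodendrocyte markers differed among the PS19 mice, at 1.24, -0.04, -0.76 and -0.52 in mice 1 to 4 against -0.04 to 0.07 in NTG, and the list's median was 0.19, or -0.43 without mouse 1. Border-associated macrophage genes were higher in 13 of 15 (86.7% against 50.5%, median 0.17), but the library median was 0.86 in PS19 mouse 1 and -0.04, -0.02 and -0.04 in PS19 mice 2 to 4, and the list's median was -0.089 without mouse 1. Of 18 lymphocyte markers 3 were tested, and Ccl5, given above, was the 1 without overlap (log2 fold change 1.91, 33.3% against 3.29%). Lymphocyte markers also included Ighm, an antibody heavy chain, at 259 to 431 CPM, and Cd3e, a chain of the T cell receptor complex, was at 0 in all 8 libraries. In bulk RNA fewer cells of a type and less RNA per cell cannot be told apart, and the part of these cells in the results was not tested.

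Cultured wild-type microglia were also given tau fibrils at 2 µg/ml or vehicle for 24 h, with 4 cultures each. The difference between the PS19 effect and the tau fibril effect was tested in 1 edgeR fit of 16 libraries, and the contrasts share no library. It passed the FDR for 957 of 11852 genes (8.07%), 433 of them with the higher change in PS19 (3.65%). Among the 8 DEGs it passed for 7, and these were all higher in PS19, the direction in which the DEGs had been chosen. Sdc3 was the exception, with log2 fold changes of 1.61 (SE 0.21) in PS19 and 1.30 (SE 0.20) with fibrils and a difference of 0.31 (SE 0.29, edgeR FDR 0.585), which was -0.033 without PS19 mouse 3.

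Chst2, Nes and Actr3b had fold changes of opposite sign in the contrasts, with differences of 4.05 (SE 0.31), 2.44 (SE 0.27) and 4.52 (SE 0.55) and edgeR FDRs of 1.32e-08, 1.53e-06 and 7.16e-06. In culture Chst2 had 145, 177, 159 and 169.8 CPM with fibrils and 331, 365, 288 and 344 CPM with vehicle (log2 fold change -1.10, SE 0.20, edgeR FDR 0.000544). Nes had 37.4 to 55.3 CPM with fibrils and 77.2 to 125 CPM with vehicle (-1.04, SE 0.18, edgeR FDR 0.000255). Actr3b was at 11.9 to 18.5 CPM with fibrils and at 20.3 to 34.9 CPM with vehicle (-0.92, SE 0.32, edgeR FDR 0.0551). The 3 genes were also more abundant in vehicle cultures than in NTG microglia, with 332 ± 32.9, 95.7 ± 21.1 and 26.6 ± 6.33 CPM (SD, n = 4), although the adult and cultured libraries were scaled separately for these levels.

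Cst7 rose in both, from 8.81 ± 1.74 to 42.3 ± 7.02 CPM in culture (SD, n = 4; log2 fold change 2.15, SE 0.31, edgeR FDR 0.0000395), and its difference of 1.37 (SE 0.42) passed narrowly (edgeR FDR 0.0479). That FDR was above 0.05, and 0.134 at most, without PS19 mouse 1 or 3 or without NTG mouse 1, 3 or 4, so this call depends on single mice. Itgax, Axl and Clec7a had log2 fold changes of 2.10, 2.69 and 1.98 in PS19 in this fit. With fibrils these were 0.20, 0.58 and 0.44, which missed the threshold (edgeR FDR 0.690, 0.116 and 0.191). Their differences were 1.89 (SE 0.34), 2.10 (SE 0.35) and 1.54 (SE 0.32), with edgeR FDRs of 0.000795, 0.000349 and 0.00275. Source of tau, length of exposure, age of the cells and culture all differ between the contrasts and cannot be told apart.

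**Figure D5:**
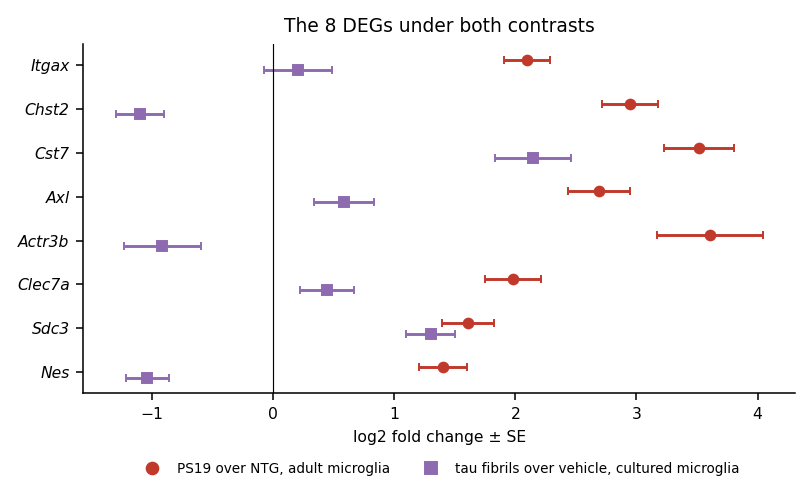
Log2 fold changes with SE of the 8 DEGs in adult microglia of PS19 over NTG mice (red circles) and in cultured microglia with tau fibrils over vehicle (purple squares), from 1 fit of 16 libraries. All circles lie right of 0, Chst2, Actr3b and Nes have squares left of 0, and for Sdc3 the estimates lie 0.31 apart.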

How the data were processed

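The authors made QuantSeq 3′ libraries, mapped the reads to GRCm38 with GENCODE annotation on the BlueBee platform and deposited whole-number counts per gene for each library, without normalization. The submitters' notes also name STAR, RSEM, edgeR and limma; the strand setting of the counting is not given in the sources used here. Each table holds 47643 genes and 5 closing lines for uncounted reads, which were left out.

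Samples were grouped by genotype label. Counts were analysed in R 4.3.3 with edgeR 4.0.16 (TMM, filterByExpr with a minimum count of 10, quasi-likelihood test, Benjamini-Hochberg FDR below 0.05); limma 3.58.1 and DESeq2 1.42.0 were alternatives. Standard errors were derived from fold change and F, and the biological coefficient of variation was 30.5%. Symbols came from GENCODE M21. The procedure was tested on simulated counts. No 2 libraries of a group were identical, and PS19 and NTG mice share no numbers in the labels that pair them. Nothing in the labels ties the libraries to further repeats, so p-values measure the spread between these mice.

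Named genes are the DEGs, the 8 highest and 8 lowest fold changes without overlap (mean count at least 10), the leading 2 genes and the 4 lowest p of each list, genes named in the paper, and others marked as chosen after their values were seen. The members and the 32 lists, which share some genes, were chosen with earlier results of these data known. Alternatives were other scalings, filters, tools, covariates, thinned counts and leaving out libraries; 2 subsets of PS19 mice were added after seeing the data. A few genes are not reported here.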

Additional observations from a re-analysis of the deposited data

Results flagged for a closer look

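Of 272 groups of 4 values checked for a mouse far from the rest (Dixon's test at the 95% level), 17 had one. Chance gives about 1 in 20, so this count is little above what chance gives. With 4 values the test has little power and cannot mark 2 mice that lie apart together. It therefore does not decide whether any value listed here arose by chance. PS19 mouse 1 stood apart with 161 CPM of Xist, 30.8 of Igf2bp3, 535 of Igf1 and 183 of Ms4a7, a macrophage membrane protein. These genes are among those plotted by library after their values were seen, so for them the outcome of the test was known beforehand. The summed level of border-associated macrophage markers was also apart in PS19 mouse 1, at 2006 CPM. PS19 mouse 2 stood apart with 38.3% of reads outside genes, 299 CPM of H2-D1 and 287 of Gusb. In PS19 mouse 3 Gm11942, at 986 CPM, and Ccl4, at 2618 CPM, were far above the other PS19 mice, and in PS19 mouse 4 so was Rpl29, at 63.5 CPM, a ribosomal gene with many near-identical copies. In NTG mice the values apart were 100.4 CPM of Igf1, 194 of Dock10 and a summed DAM core level of 13742 CPM in mouse 1, a summed ribosomal level of 24300 CPM in mouse 2, and 19.1 CPM of Sdc4 and 9.25 of Prnp in mouse 3. The causes were not tested.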

How the results depend on the processing

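The count of 8 DEGs was 166 with no filter, 98 with DESeq2, 4 with limma-voom, 0 with age as a covariate, 0 with only mice of the same age, 543 with only PS19 mice 3 and 4, and 4 to 54 when single libraries were left out (54 without PS19 mouse 2, 4 without NTG mouse 1 and 4 without NTG mouse 2, 5 without NTG mouse 3 or 4). Of the 543 genes, 249 were higher and 294 lower. The count of DEGs stayed between 8 and 12 with RLE or total-count scaling, at least 10 counts in every library, reads outside genes as a covariate, thinned counts and only PS19 mice 1 and 2. The cause of these differences was not tested. Itgax, Chst2, Cst7 and Axl were called in every alternative except those on age, in which 0 genes passed, and all 8 DEGs kept their direction wherever they were tested. The counts for the difference from the tau fibril effect ranged from 762 to 1267. Of 85 genes with a fitted change, only Igf1 changed direction, to -0.42 without PS19 mouse 1 (-0.42 to 1.46 when single libraries were left out) and -0.81 with only PS19 mice 3 and 4, and the difference of effects for Sdc3 became -0.033 without PS19 mouse 3 (-0.033 to 0.33). Of 619 medians of lists under the alternatives, 587 moved by less than the spread between mice. No paired analysis was possible because the labels give these mice no shared numbers. The NTG depth of 1864382 to 5108921 counts limits genes such as Actr3b.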
